A study of Homo sapiens with 12 samples.

Results

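The genes described here are 10 members of the Notch pathway out of 20136 protein-coding genes: the receptors NOTCH1, NOTCH2 and NOTCH3, the ligands DLL1, DLL3, DLL4, JAG1 and JAG2, and the target genes HES1 and HEY1. They were chosen by name, and for each one the deposited peaks within 1, 2.5 and 10 kb of its start were read in every library. H3K4me3, trimethylation of lysine 4 on histone H3, is a mark of active promoters. It was mapped by CUT&RUN, in which an antibody brings a nuclease to chromatin and the released fragments are sequenced, in BON1, a human pancreatic neuroendocrine tumor line. Control cells (BON1/TGL/pQ) were compared with cells made to overexpress the anti-apoptotic protein Bcl-xL with an HA tag (BON1/TGL/HA-Bcl-xL), to ask whether the overexpression affects the mark. Reactions used 500000 cells per condition, in 3 replicates for each line and antibody, and a rabbit anti-mouse IgG served as the background reaction. All cells were grown with puromycin. The labels expand neither TGL nor pQ, and they do not say whether a line is a clone or a pool, or whether replicates were separate cultures. Peak lists of 11 libraries were used, named here by line and replicate number: 3 control and 2 HA-Bcl-xL lists for H3K4me3 and 3 of each line for IgG. The H3K4me3 list of HA-Bcl-xL 1 was not analysed here.

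Notch receptors are activated by DLL and JAG ligands on neighbouring cells, and cleavage then releases an intracellular domain that joins the DNA-binding protein RBPJ and switches on repressors of the HES and HEY families. In the developing pancreas and in neuroendocrine tissues, HES1 represses the genes that start endocrine differentiation, so Notch signalling is known to oppose a neuroendocrine fate. DLL3 differs from the other ligands in that it is known to inhibit Notch signalling within the cell that makes it, and it is often expressed in neuroendocrine carcinomas.

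The stretches that carried the peaks of these genes are given first, as GRCh37 reference sequence read 5′ to 3′ on the strand of the gene, with CpG dinucleotides in capitals. The DLL3 stretch lay upstream of the gene under the peaks of at least 3 libraries, and the DLL4 stretch lay under the peaks of all 5 H3K4me3 libraries across the end of coding exon 3. Of the 2 JAG1 stretches, the first is the part just upstream of the 5′ end that 4 libraries covered, and the second is an intron stretch that all 5 covered. The DLL1 stretch is the whole peak of HA-Bcl-xL 2, and the NOTCH2 stretch is the part shared by the peaks of control 1 and HA-Bcl-xL 2 upstream of the start of the canonical transcript.
DLL3, chr19:39989209-39989317, plus strand: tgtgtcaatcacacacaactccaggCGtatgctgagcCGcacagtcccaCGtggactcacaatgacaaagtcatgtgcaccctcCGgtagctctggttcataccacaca
DLL4, chr15:41222861-41222946, plus strand: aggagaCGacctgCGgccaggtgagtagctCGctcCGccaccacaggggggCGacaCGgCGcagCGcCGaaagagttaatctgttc
JAG1, chr20:10654648-10654700, minus strand: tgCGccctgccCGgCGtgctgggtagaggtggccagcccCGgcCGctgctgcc
JAG1, chr20:10652239-10652319, minus strand: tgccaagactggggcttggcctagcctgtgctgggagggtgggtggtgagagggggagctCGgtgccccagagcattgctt
DLL1, chr6:170616159-170616238, minus strand: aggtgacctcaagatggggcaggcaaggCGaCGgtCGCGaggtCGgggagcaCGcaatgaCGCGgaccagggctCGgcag
NOTCH2, chr1:120612315-120612417, minus strand: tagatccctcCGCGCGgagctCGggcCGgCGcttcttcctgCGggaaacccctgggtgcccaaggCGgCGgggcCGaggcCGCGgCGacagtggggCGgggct

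These stretches differed in CpG content. The NOTCH2 stretch held 14 CpG in 103 bp, and the DLL4 and DLL1 stretches held 9 each in 86 and 80 bp. The JAG1 stretch at the start held 5 in 53 bp, the DLL3 stretch 4 in 109 bp, and the JAG1 intron stretch 1 in 81 bp. Peaks shared by all 5 libraries thus covered both a CpG-dense stretch in DLL4 and a CpG-poor one in JAG1.

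Peaks were called separately in each library. For H3K4me3, controls 1 to 3 had lists of 17711, 12159 and 10247 peaks (chromosomes 1 to 22, X and Y), and HA-Bcl-xL 2 and 3 had lists of 16379 and 15497. The share of all genes with a peak in the 1 kb window followed the same order, at 40.4, 32.4 and 28.2% in control and 38.1 and 36.5% in HA-Bcl-xL libraries. IgG lists held 1699, 1674 and 2113 peaks in control and 268, 266 and 244 in HA-Bcl-xL cells. Median fragment numbers at the peak summit, solved from each peak's deposited statistics, were 9 to 12 in H3K4me3 and 3 to 6 in IgG lists, so a missing peak at this depth is not the absence of the mark. Of 10 neuroendocrine markers, CHGB, NEUROD1, SCG2 and SCG3 had a peak within 1 kb in all 5 H3K4me3 libraries, CHGA and SYP in some, and ENO2, INSM1 and ISL1 were among those with none around the 5′ end. None of 5 fibroblast, 5 leukocyte, 3 endothelial or 3 acinar markers had an H3K4me3 peak less than 1 kb from its 5′ end, and COL1A1, a fibroblast marker, had one within 2.5 kb in HA-Bcl-xL 2.

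**Figure D1:**
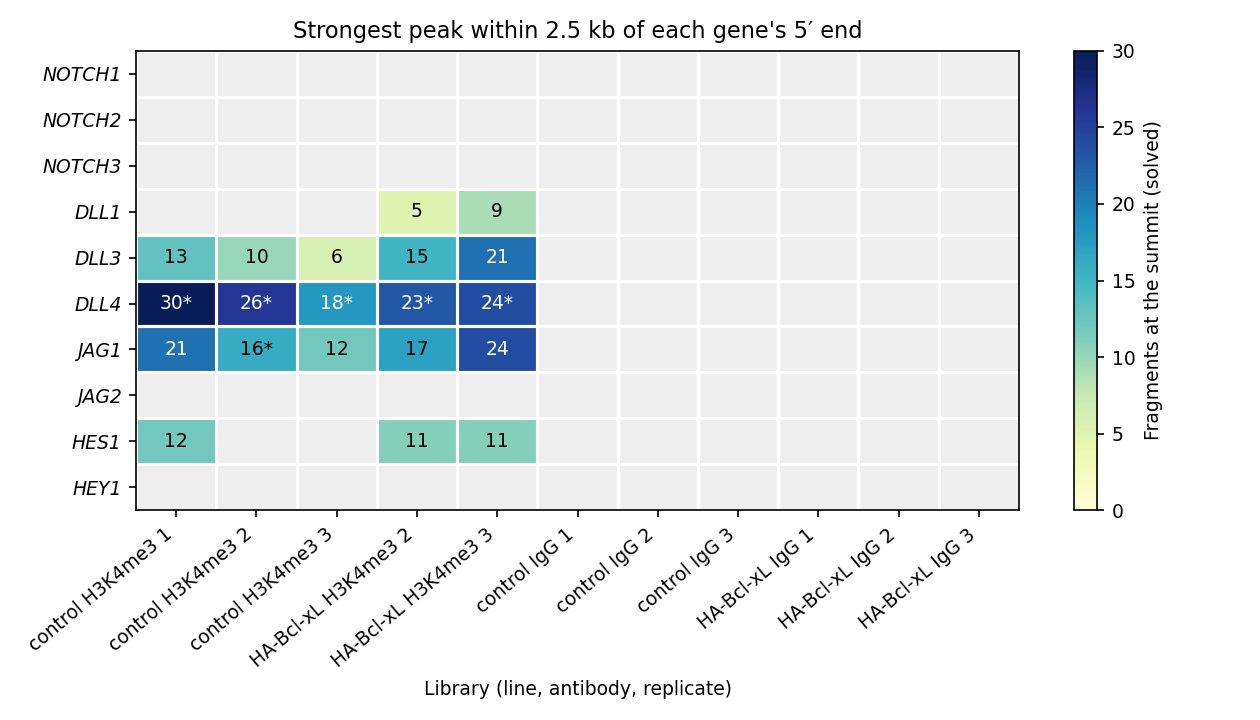
Fragments at the summit of the highest-ranked peak within 2.5 kb of the 5′ end of each gene (rows) in each of the 11 libraries (columns). Numbers and colour give the fragments, and grey cells have no peak. An asterisk marks a gene that has no peak within 1 kb in that library. JAG1 in HA-Bcl-xL 3 (24) and HES1 in HA-Bcl-xL 2 (11) have no asterisk, but the peaks shown lie outside 1 kb. DLL3, DLL4 and JAG1 have a value in all 5 H3K4me3 libraries, and all 6 IgG columns are grey.

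Within 1 kb of the 5′ end, DLL3 was the 1 gene of the 10 marked by a peak in all 5 H3K4me3 libraries, a pattern that 21.3% of all protein-coding genes had. JAG1 had a peak in 4 libraries, HES1 in 3 and DLL1 in 2. The other 6 genes, NOTCH1, NOTCH2, NOTCH3, DLL4, JAG2 and HEY1, had none in any library, as did 51.8% of all genes. Per library, 3, 1 and 2 of the 10 genes had a peak in controls 1 to 3 (2.0 ± 1.0, SD, n = 3) and 4 and 4 in HA-Bcl-xL 2 and 3 (4.0 ± 0.0, SD, n = 2). Of all genes, 40.4, 32.4 and 28.2% had a peak in controls 1 to 3 and 38.1 and 36.5% in HA-Bcl-xL 2 and 3. The difference of 2.0 genes compares with a pooled SD between replicates of 0.816. It was 0.833 when every list was cut to its 10247 strongest peaks (pooled SD 0.624). At a minimum -log10 q of 5 and at canonical starts it was also 0.833 (pooled SD 1.03 and 1.75). With every transcript start counted it was 1.83 (pooled SD 1.75), so whether it exceeded the spread depended on the setting. No IgG library had a peak within 1 kb of any of the 10, and 0.785% of all genes had one in at least 1 IgG library.

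DLL1 alone had peaks in HA-Bcl-xL 2 and 3 and none in control libraries, a pattern found in 0.844% of all genes. None of the 10 had the reverse pattern, found in 0.248%. Wider windows added DLL4 and JAG1 to the genes with a peak in all 5 libraries. At 2.5 kb, 3 of the 10 had one in all 5 (25.6% of all genes) and 5 had none (46.5%). At 10 kb, 3 of 10 had one in all 5 (29.7%), JAG2 joined the genes with a peak in some libraries, and NOTCH1, NOTCH2, NOTCH3 and HEY1 still had none (39.5%). No IgG peak lay within 10 kb of the 5′ end of any of the 10, and 4.47% of all genes had one. With 10 kb around every annotated start, NOTCH2 had an IgG peak in control 1 and JAG1 had one in control 3. With 1 kb around every annotated transcript start, DLL3 and DLL4 had a peak in all 5 libraries (26.5% of all genes), and NOTCH1, NOTCH3, JAG2 and HEY1 had none (43.4%). Around the start of the canonical transcript, the 1 the annotation singles out for each gene, DLL3 had one in all 5 (22.9%) and NOTCH1, NOTCH3, DLL4, JAG2 and HEY1 had none (48.0%).

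NOTCH1, on chromosome 9 at 139388885 to 139440500 on the minus strand, encodes the receptor best known for its part in T cell development and leukemia. It had no peak within 10 kb of its 5′ end or anywhere in the gene in any of the 11 libraries. The nearest H3K4me3 peak was 63419 to 63563 bp from the 5′ end in the 5 libraries and lay beyond the 3′ end of the gene, overlapping the same place each time. The sequence within 1 kb of its 5′ end had a GC content of 73.4%, higher than at 99.2% of genes, and a CpG ratio (observed over expected) of 0.897. NOTCH3, known for its role in vascular smooth muscle, lies on chromosome 19 at 15269849 to 15311806 on the minus strand. Its nearest peak was 22397 bp away in control 3 and 75031 to 75511 bp away in the other 4 libraries. Both receptors were thus without a peak, in the gene or 10 kb around its 5′ end, in every library of both lines.

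NOTCH2, a receptor with broad roles in liver, kidney and B cells, lies on chromosome 1 at 120454176 to 120643366 on the minus strand. No library had a peak within 10 kb of its most 5′ annotated end, where GC content was 41.7% and the CpG ratio 0.0806. Its canonical transcript starts 31090 bp further inside the gene, at 120612276, and there 2 libraries had a peak. Control 1 had one at 120612279 to 120612417 with 10 fragments at the summit, and HA-Bcl-xL 2 had one at 120612315 to 120612541 with 7. Their -log10 p ranked at percentiles 60.6 and 25.9 of their own lists. Each line therefore had 1 library with a peak and at least 1 without. Placement of these fragments is uncertain, since the sequence within 1 kb of that start aligned with 97.0% identity to chromosome 1, 145208112 to 145210148. At this second place controls 1 and 3 and HA-Bcl-xL 2 and 3 had H3K4me3 peaks. The 5′ end window had a copy of 98.6% identity, with no peak at either place. The windows of the other 9 genes aligned nowhere else. NOTCH2 was also the 1 gene of the 10 with IgG peaks in its body, 4 in all, each from a control IgG library and of 3 or 4 fragments. Elsewhere in the gene, upstream of the canonical start, control 2 had an H3K4me3 peak of 4 fragments at 120630553 to 120630641.

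**Figure D2:**
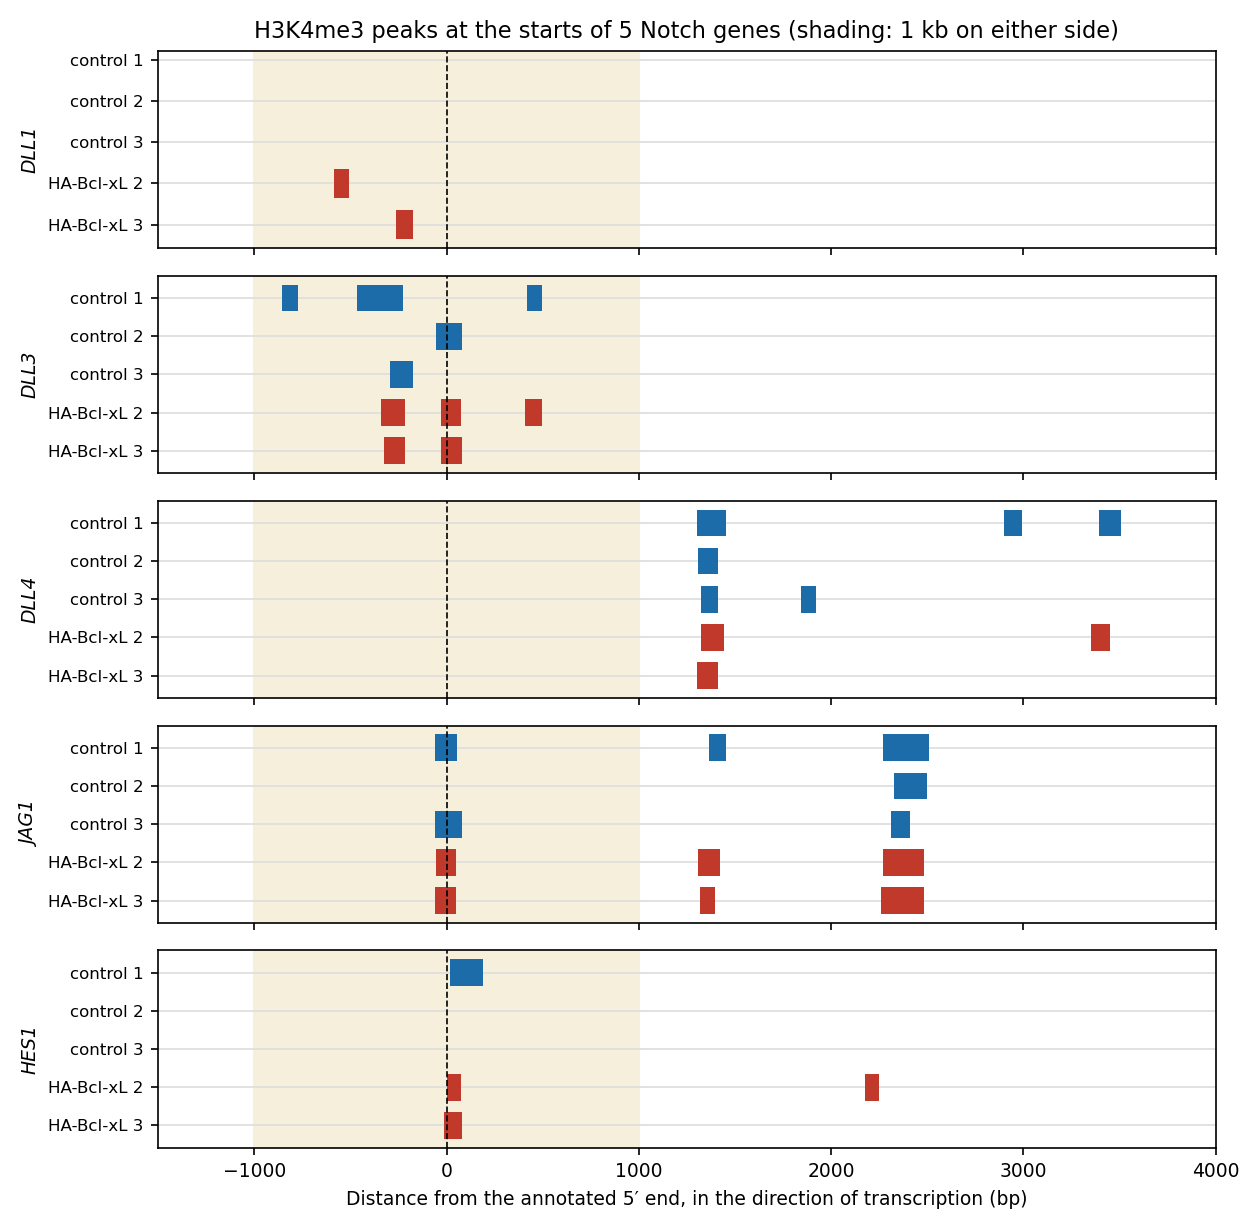
Position of each H3K4me3 peak (bars, blue for control and red for HA-Bcl-xL libraries) relative to the 5′ end of DLL1, DLL3, DLL4, JAG1 and HES1, in bp in the direction of transcription, 1 line per library. Shading marks 1 kb on either side. The DLL4 peaks all lie beyond the shading, and the 2 DLL1 peaks do not overlap each other.

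DLL3, the inhibitory ligand, lies on chromosome 19 at 39989535 to 39999121 on the plus strand. Positions are counted from the 5′ end, negative upstream. Control 1 had peaks at -858 to -773, -468 to -227 and 418 to 495, with 10, 13 and 9 fragments. Control 2 had 1 peak at -53 to 80 with 10 fragments, and control 3 had 1 at -292 to -178 with 6. Both lists with a single DLL3 peak were the 2 shortest of the 5 H3K4me3 lists. HA-Bcl-xL 2 had peaks at -339 to -216, -27 to 75 and 406 to 495, with 13, 15 and 10 fragments. HA-Bcl-xL 3 had peaks at -326 to -218 and -27 to 80, with 21 and 12.

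No base of DLL3 was under a peak in all 5 libraries. A stretch of 66 bp at -292 to -227 (39989243 to 39989308) was under peaks of 4, all but control 2. The strongest DLL3 peak of each library ranked between percentile 9.93, in control 3, and 93.3, in HA-Bcl-xL 3. Bases under peaks within 2.5 kb were 406, 134 and 115 in controls 1 to 3 and 317 and 217 in HA-Bcl-xL 2 and 3. Both HA-Bcl-xL values lay inside the control range. The log2 difference was 0.39 (SE 0.448, 95% interval -0.55 to 1.33), and with limma's moderated test across 5151 genes the adjusted p was 0.996.

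DLL4, a ligand known for its role in blood vessel sprouting, lies on chromosome 15 at 41221538 to 41231271 on the plus strand. It had no peak within 1 kb of its 5′ end, yet every H3K4me3 library had one between positions 1301 and 1451. The summits of these peaks held 30, 26 and 18 fragments in controls 1 to 3 and 23 and 24 in HA-Bcl-xL 2 and 3, so the lines overlapped. In their own lists they ranked at percentiles 81.9, 87.7 and 65.7 in control and 74.4 and 77.0 in HA-Bcl-xL libraries. All 5 covered 86 bp at 41222861 to 41222946, the stretch printed above, of which 20 bp are coding exon 3. All 86 bp also lie in an exon of another annotated DLL4 transcript. The start of a second DLL4 transcript, at 41223078, was 133 to 199 bp from the summits. Further peaks lay downstream in control 1 (2898 to 2990 and 3394 to 3504), control 3 (1843 to 1921) and HA-Bcl-xL 2 (3352 to 3449). Bases under peaks within 2.5 kb were 150, 102 and 166 in control and 122 and 108 in HA-Bcl-xL libraries, a log2 difference of -0.37 (SE 0.442, 95% interval -1.29 to 0.56, limma adjusted p 0.996).

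The local background that the caller had set against these peaks was high at DLL4. It can be solved from each peak's fold and p, and is given relative to the lowest background in the same list. At the DLL4 peaks shared by all libraries it was 57.5, 36.4 and 44.9 times that floor in controls 1 to 3 and 41.2 and 43.0 times in HA-Bcl-xL 2 and 3. The median over all peaks of a list was 7.96 to 10.5 times. The DLL4 values stood at percentiles 98.5 to 99.2 of all peaks in their own lists. At JAG1 peaks within 2.5 kb the background was 22.2 to 32.6 times the floor (percentiles 90.5 to 93.8), at HES1 18.7 to 22.3 times (82.4 to 90.4), at DLL3 8.80 to 13.0 times (47.0 to 69.6) and at DLL1 5.86 to 5.98 times (30.7 to 30.9). The order DLL4, JAG1, HES1, DLL3, DLL1 held in each library with the gene's peaks. What raised the background at DLL4 was not tested.

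**Figure D3:**
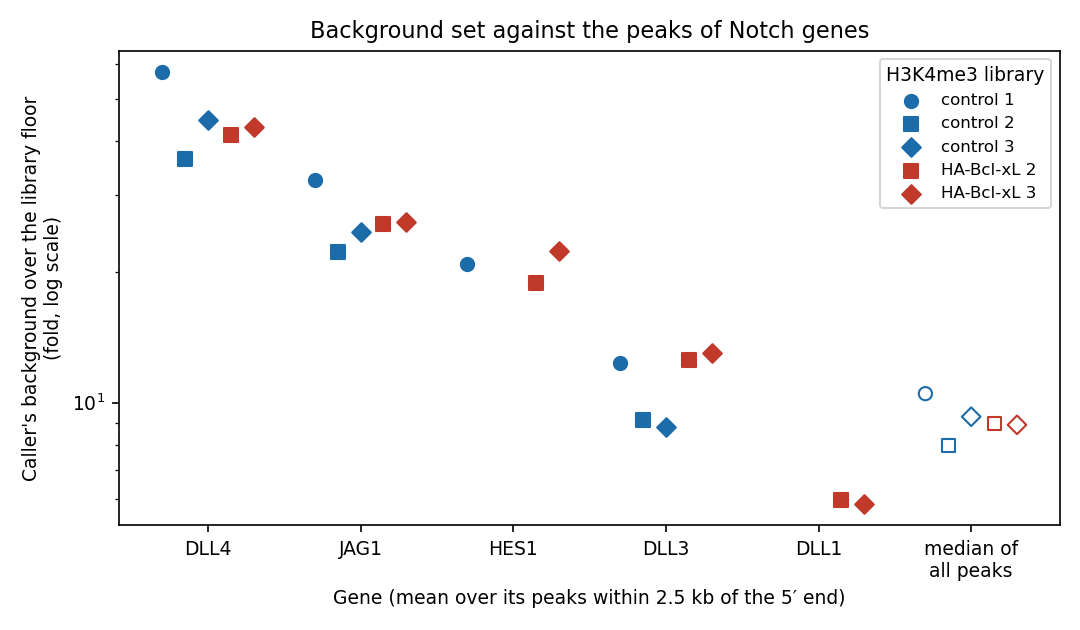
Local background that the caller set against the peaks within 2.5 kb of each gene, as a fold over the lowest background of the same list (log scale), 1 point per H3K4me3 library. Open symbols give the median of all peaks of the list. DLL4 stands at 36.4 to 57.5 times, well above the medians of 7.96 to 10.5.

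JAG1, whose loss of function causes Alagille syndrome, lies on chromosome 20 at 10618332 to 10654647 on the minus strand and had peaks at 3 places. At the 5′ end itself, between -62 and 81, controls 1 and 3 had 21 and 12 fragments and HA-Bcl-xL 2 and 3 had 17 and 16, while control 2 had no peak. Without control 2, JAG1 had a peak within 1 kb in every library and joined DLL3 (23.2% of all genes). Between 1309 and 1454, peaks were called in control 1, HA-Bcl-xL 2 and HA-Bcl-xL 3, with 18, 14 and 12 fragments. Those summits were 44 to 94 bp from the start of a long noncoding RNA (ENSG00000270792), so the 2 transcripts cannot be told apart there. In the intron between 2258 and 2509 all 5 libraries had a peak, with 20, 16 and 9 fragments in control. HA-Bcl-xL 2 and 3 had 14 and 24, and all 5 shared 81 bp at 10652239 to 10652319. These intron summits were 1008 to 1180 bp from a start of the same noncoding RNA and 2312 to 2484 bp from that of JAG1. The 2 transcripts cannot be told apart there either. For control 2 the intron peak was the only one within 2.5 kb. The fragment numbers of the lines overlapped at this place and at the 5′ end. Bases under JAG1 peaks within 2.5 kb were 441, 168 and 241 in control and 430 and 414 in HA-Bcl-xL libraries. Control 1 was the highest of the 5 and controls 2 and 3 the lowest. The log2 difference was 0.57 (SE 0.432, 95% interval -0.33 to 1.48, limma adjusted p 0.987).

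JAG2, a ligand needed for limb and palate development, lies on chromosome 14 at 105607319 to 105635161 on the minus strand. It had no peak within 2.5 kb. Its 1 peak within 10 kb lay upstream, starting at 105642499 in both control 2 and HA-Bcl-xL 3, with 14 and 13 fragments. That peak was 1539 and 1535 bp from a start of the neighbouring gene NUDT14 and 7394 and 7398 bp from that of JAG2. JAG2 had the highest GC content of the 10 around its 5′ end, 75.7%, above 99.7% of all genes, with a CpG ratio of 0.869.

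DLL1, a ligand used in lateral inhibition among neural and endocrine progenitors, lies on chromosome 6 at 170591294 to 170615653 on the minus strand. Its HA-Bcl-xL peaks lay at 2 different places. HA-Bcl-xL 2 had its peak at -585 to -506 (170616159 to 170616238) with 5 fragments, at percentile 1.83 of its list and a -log10 q of 2.24, where the lowest of that list is 2.00. HA-Bcl-xL 3 had its peak at -263 to -176 (170615829 to 170615916) with 9 fragments, at percentile 53.2. The 2 peaks had no base in common. Their summits were 324 and 12 bp from the start of a transcript of FAM120B, the neighbouring gene on the opposite strand, so a peak of DLL1 and a peak of FAM120B cannot be told apart.

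The canonical DLL1 transcript starts 15487 bp inside the gene, at 170600166. There control 1 had a peak at 170599893 to 170600041 with 9 fragments, and no other library had one within 1 kb. Its summit was 174 bp from another FAM120B start. The pattern of peaks in HA-Bcl-xL libraries alone was therefore absent at the canonical start, where 0.973% of all genes had it. It was also absent with every transcript start counted, with a -log10 q of at least 5 and with lists of equal length.

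HES1, the best known Notch target and a repressor of endocrine differentiation, lies on chromosome 3 at 193853937 to 193856521 on the plus strand. Its promoter is known for a pair of sites for RBPJ. The 300 bases before its 5′ end are shown because they hold the RBPJ core TGGGAA, in capitals, at 2 places. Whether these 2 places are the known pair was not tested.
HES1, chr3:193853637-193853936, plus strand: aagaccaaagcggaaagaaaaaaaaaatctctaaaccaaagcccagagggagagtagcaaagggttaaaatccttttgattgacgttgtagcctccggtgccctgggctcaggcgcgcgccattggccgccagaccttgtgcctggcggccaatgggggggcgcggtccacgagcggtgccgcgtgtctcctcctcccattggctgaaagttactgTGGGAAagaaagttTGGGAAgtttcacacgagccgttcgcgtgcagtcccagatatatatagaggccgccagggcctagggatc

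The 2 cores lay at -84 to -79 and -70 to -65 on the strand of the gene. In the same window 3.74% of all genes had at least 2 matches to TGGGAA on either strand, and 25.0% had at least 1. NOTCH2 had 1 on each strand, and the other 8 genes had none in this window. These are matches of letters, and no motif other than this core was searched. No HES1 peak reached the cores. Control 1 had a peak at 16 to 190 with 12 fragments, HA-Bcl-xL 2 at 2 to 75 with 10, and HA-Bcl-xL 3 at -14 to 77 with 11. They ranked at percentiles 28.2, 15.1 and 17.5 of their lists. HA-Bcl-xL 2 had a second peak at 2176 to 2249 with 11 fragments, in the untranslated part of exon 4. Controls 2 and 3 had none, and their nearest peaks were 352482 and 118750 bp away. The comparison at this gene rested on control 1 and on the setting. Without control 1, HES1 had peaks in HA-Bcl-xL 2 and 3 and none in control libraries, as did 3.04% of all genes. With lists of equal length it had none within 1 kb in any library, as did 57.4% of all genes. At a -log10 q of at least 5, control 1 alone kept its peak (5.08, against 3.47 and 3.69 at the start in HA-Bcl-xL 2 and 3).

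HEY1, a repressor of the related HEY family with roles in heart and vessel development, lies on chromosome 8 at 80674606 to 80680092 on the minus strand. No library had a peak within 10 kb. The nearest was 15729 bp away in HA-Bcl-xL 2, 95006 bp in control 3, and 261766 to 262021 bp in the other 3. Its CpG ratio of 0.922 was the highest of the 10, against a median of 0.612 over all genes. NOTCH1, JAG2 and HEY1, without a peak within 2.5 kb in any library, thus had higher CpG ratios than JAG1, DLL1, HES1, DLL4 and DLL3, which had peaks. Of the other genes without a peak, NOTCH2 (0.0806) was lower than all 5 and NOTCH3 (0.653) was above DLL3 (0.605).

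Of the 43 H3K4me3 peaks in or within 10 kb of the 10 genes, 34 lay within 2.5 kb of a 5′ end, and 23 of those had the summit downstream of it. Bases under peaks were compared between the lines at all 5151 genes with a peak within 2.5 kb in all 5 libraries. With limma, 0 genes passed an adjusted p of 0.05 (0.0%), and 269 genes (5.22%) had an unadjusted p under 0.05. Without HA-Bcl-xL 2, 2 genes passed, and without HA-Bcl-xL 3, 3 did, none of them among the 10 genes. DLL3, DLL4 and JAG1 were among the genes tested and ranked 1952, 2051 and 1035 by p. All 3 intervals included 0. DLL1 and HES1, tested when genes with a peak in at least 2 libraries were admitted and 100 bases were added before the log, had log2 differences of 0.75 (limma adjusted p 0.878) and 0.51 (limma adjusted p 1.00). DLL1 entered through its 2 HA-Bcl-xL libraries alone, with 0 bases in each control, so the direction of its value was fixed by the filter.

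**Figure D4:**
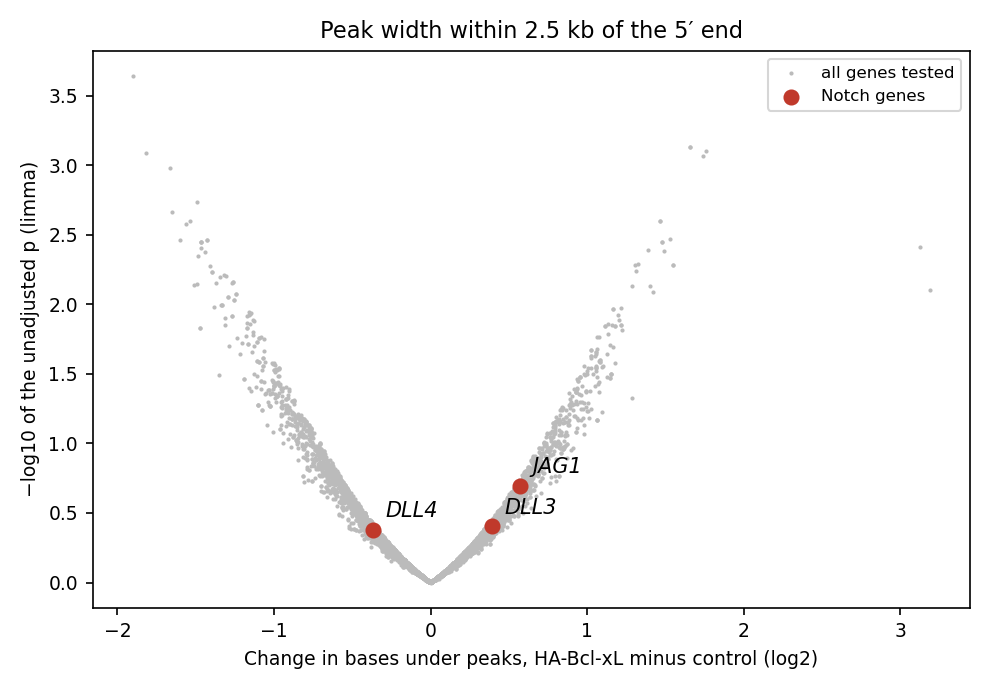
Change in bases under H3K4me3 peaks within 2.5 kb of the 5′ end (x axis, log2, HA-Bcl-xL minus control) against the -log10 of the unadjusted limma p (y axis) for 5151 genes (grey points). The 3 Notch genes tested (red) lie at 0.39, -0.37 and 0.57, inside the cloud of all genes.

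The other 53 genes of the pathway were counted by role, in the order in which a Notch signal is made and used. Within 1 kb of the 5′ end, 25, 17 and 19 of them had a peak in controls 1 to 3 (20.3 ± 4.16, SD, n = 3) and 26 and 22 in HA-Bcl-xL 2 and 3 (24.0 ± 2.83, SD, n = 2). The difference of 3.67 genes compares with a pooled SD of 3.77. It ranged from 1.67 without HA-Bcl-xL 2 to 6.0 without control 1, where the pooled SD was 4.16 and 2.24. It was 2.0 without control 2 and 5.67 without HA-Bcl-xL 3 (pooled SD 3.61 and 4.16). With lists of equal length it was 2.67 (pooled SD 1.25), so whether it exceeded the spread depended on the libraries and the setting. In all 5 libraries 13 had a peak (24.5%, against the 21.3% of all genes), and in none 23 (43.4%, against 51.8%). None had a peak in all libraries of 1 line and no library of the other. That count rested on single libraries: without control 1, 4 genes (DTX3, NCOR1, NEURL1 and SPEN) of the 53 had the pattern of HA-Bcl-xL alone, which 3.04% of all genes then had. Without control 2 it was 1 gene (MAML2, against 1.25% of all genes), and without HA-Bcl-xL 3 it was 3 (FBXW7, PSEN2 and RFNG, against 2.53%). The reverse pattern was shown by ADAM10 without HA-Bcl-xL 2 (1.16% of all genes).

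Among the 17 genes that make, glycosylate, activate or cleave ligands and receptors, 6 had a peak in all 5 libraries (35.3%, against 21.3% of all genes), 6 in some and 5 in none. Those with the highest mean rank were NCSTN (mean percentile 93.1), which encodes nicastrin of the gamma-secretase that cuts the receptor, MIB2 (86.4), a ubiquitin ligase for Notch ligands, and PSENEN (86.3), another gamma-secretase subunit. The gamma-secretase subunits APH1A and APH1B and the protease FURIN had none at the 5′ end. Within 1 kb of their canonical starts, APH1A had a peak in all 5 libraries and APH1B in 4, all but control 3. Of the 15 nuclear partners, 4 had a peak in all 5 libraries, 6 in some and 5 in none. SNW1 (mean percentile 99.1), CIR1 (94.6) and MAML1 (61.9), the last a coactivator bound to the Notch domain and RBPJ, led. CREBBP, MAML3 and RBPJ had none at the 5′ end. Within 2.5 kb, MAML3 had a peak in all libraries but HA-Bcl-xL 2, and CREBBP had one in control 1 and HA-Bcl-xL 2. RBPJ had peaks in control 1 and HA-Bcl-xL 2 within 1 kb of its canonical start, which is not its most 5′ end.

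Of 10 genes for receptor turnover and inhibition, ITCH (mean percentile 98.3), a ubiquitin ligase, and DTX2 (77.9) had a peak in all 5 libraries, 3 in some and 5 in none. That is 20% in all 5, against 21.3% of all genes. AAK1, DTX1 and DTX4 were among those without a peak at the 5′ end, but AAK1 had one at its canonical start in 4 libraries, all but control 3. HES4 (83.9) was the 1 of the 7 other HES and HEY genes with a peak in all 5. HES2, HES5 and HES6 were among the 5 with none. Of the 4 other receptors and ligands, DLK2 had a peak in 1 library and DLK1, DNER and NOTCH4 had none. The receptor genes NOTCH1 to NOTCH4 were thus without a peak at the most 5′ end in all 5 libraries, as were 51.8% of all genes. With every annotated start counted, NOTCH2 had a peak in 2 libraries and NOTCH4 in control 1.

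**Figure D5:**
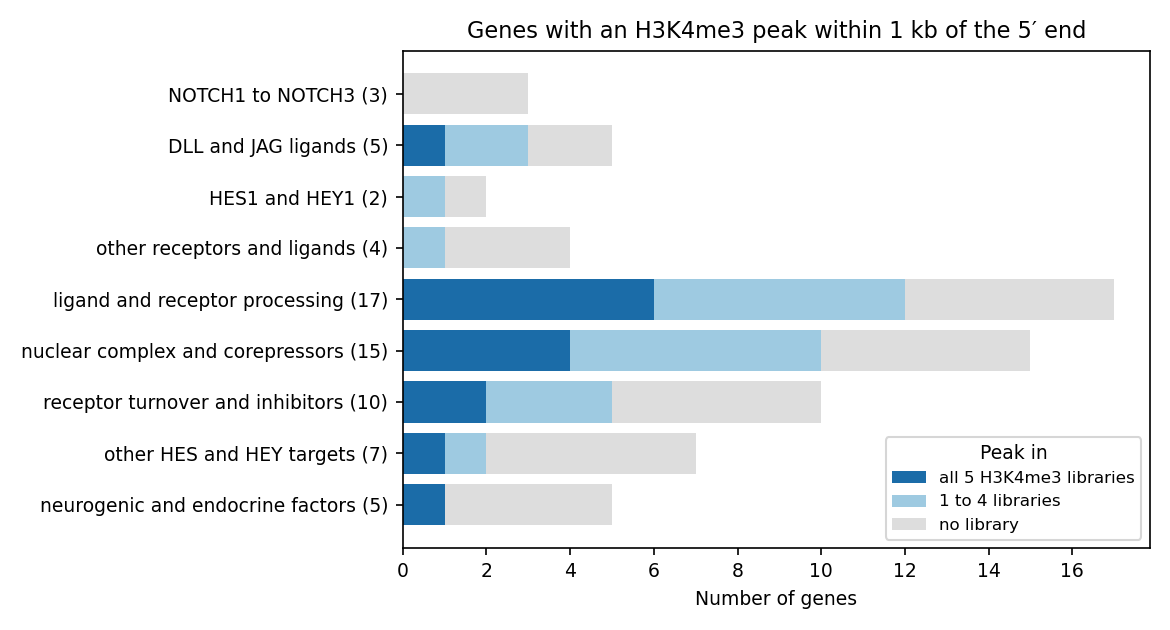
Number of genes in each role group (size of the group in brackets) by H3K4me3 peaks less than 1 kb from the 5′ end: in all 5 libraries (dark blue), in 1 to 4 (light blue) or in none (grey). NOTCH1 to NOTCH3 are all grey, and 6 of 17 genes for ligand and receptor processing are dark blue.

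The genes that HES1 is known to repress included NEUROD1, NEUROG3, INSM1 and ATOH1, all transcription factors of neural or endocrine cells. NEUROD1 had a peak in all 5 libraries, with 26, 22 and 23 fragments in controls 1 to 3 and 27 and 18 in HA-Bcl-xL 2 and 3, and the lines overlapped. INSM1 had none within 1 kb but had 597, 369 and 259 bases under peaks within 2.5 kb in control and 384 and 342 in HA-Bcl-xL libraries. ATOH1 and NEUROG3 had none within 10 kb in any H3K4me3 library.

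The 6 genes without a peak shared that pattern over all 11 libraries with 10363 other genes (51.5%), 27 of them from the pathway and endocrine lists. The DLL3 pattern, a peak in every H3K4me3 and no IgG library, was shared by 4246 genes (21.1%), 14 of them from those lists: ADAM17, CIR1, DTX2, EP300, HES4, ITCH, MAML1, MIB2, NCSTN, NEUROD1, POFUT1, POGLUT1, PSENEN and SNW1. The JAG1 pattern was shared by 382 genes (1.90%), with MIB1 among those from the lists. The HES1 pattern was shared by 435 genes (2.16%), with DTX3, NCOR1, NEURL1 and SPEN. The DLL1 pattern was shared by 168 genes (0.834%) and by none from the lists.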

How the data were processed

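CUT&RUN libraries of control and HA-Bcl-xL BON1 cells were deposited as narrowPeak lists without headers, and the 11 used here each hold the peaks of 1 library. The deposited columns are, per peak, the authors' score, fold enrichment, and p and q on the -log10 scale, used only to rank or filter peaks within that list or to solve fragments. The submitters' processing notes name bcl2fastq 2.20, Trimmomatic 0.36, Bowtie2 2.2.9, MACS2 2.1.1, deepTools 3.5.1 and hg19, with no settings. Whether IgG entered the peak calls, and how duplicates and reads with several placements were treated, is not given in the sources used here.

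The labels gave each library its line, antibody and replicate. The genes and gene lists were chosen with earlier results of these data known, and the lists of other pathway roles, endocrine factors and markers come from textbook knowledge. Peaks of the numbered chromosomes, X and Y were matched to GENCODE release 44 lifted to GRCh37, with a gene counted where at least 1 bp of a peak lay in the window. The start was the most 5′ annotated end. Coordinates are 1-based. The canonical start is that of the Ensembl canonical transcript, or the 5′ end where none is marked, and was added after seeing the data. Fragments n and background were solved from fold = (n + 1) / (background + 1) and a Poisson p, which recovered a whole number within 0.001 in -log10 p for all 47 peaks of the 10 genes. For 46 of them no other number came within 0.01, and the exception is DLL3 in control 3. The lists hold no read totals, so depth is relative: the lowest background was 0.0659, 0.0705 and 0.0478 in control and 0.0692 and 0.0681 in HA-Bcl-xL H3K4me3 libraries. Fragment numbers cover counting only, since PCR copies are not independent molecules.

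Widths were compared with limma 3.58.1 (R 4.3.3) on log2 bases, after centring each library on its median, with p adjusted by Benjamini-Hochberg, and the fit was tested on simulated data. Its p-values measure only the spread between these samples, which may be technical. Counts of genes were not tested. Window copies were searched with minimap2 2.31. All 10 genes were named; of the other pathway genes, any found in 1 line alone, up to 3 per role with the highest mean rank among those in all 5 libraries, and up to 3 without a peak in alphabetical order. Some genes of these lists entered the counts but are not reported here by name. NOTCH4 was also named in the sentence on receptors, and the other RBPJ starts were examined with their values known. Alternatives were other windows and starts, a minimum -log10 q of 5, lists of equal length, summits, removal of peaks over IgG peaks, other width settings, a replicate block and each library left out. Python 3.11.15, numpy 2.4.6, pandas 2.3.3, scipy 1.17.1 and matplotlib 3.10.9 were used.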

Additional observations from a re-analysis of the deposited data

How the results depend on the processing

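For the 10 genes, the mean number with a peak per library was 3.33 (control) and 5.0 (HA-Bcl-xL) at 2.5 kb, and 3.67 and 5.5 both at 10 kb and with any transcript start. The HA-Bcl-xL mean was 2.5 at a -log10 q of 5 or more and with equal list lengths. The difference fell from 2.0 to 0.833 under both and with canonical starts, where the pooled SD was 1.03, 0.624 and 1.75. Genes with a peak in all libraries numbered 3 at 2.5 kb and at 10 kb, 2 with any start and 0 at a -log10 q of 5 or more (15.3% of all genes). The HA-Bcl-xL-only count was 0 with any start, canonical starts, a -log10 q of 5 or more and equal list lengths. With 1 library left out it ranged from 1 to 2 (DLL1 and, without control 1, HES1), and the count in all libraries from 1 to 2 (DLL3 and, without control 2, JAG1). In all, 37 of 56 values held under other settings, and 33 of 35 with a library left out. A mean or difference held if it moved by less than 1 pooled SD of the main setting. A count held if it stayed within 1.5 times, and a count of 0 only if it stayed 0.

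For the other pathway genes, the means were 26.3 and 29.5 at 2.5 kb, 28.7 and 32.0 at 10 kb, 26.3 and 31.0 with any start, and 15.7 and 20 at a -log10 q of 5 or more. The HA-Bcl-xL mean was 20 with equal list lengths. The count in no library was 11 at 10 kb and 13 with any start, where 39.5 and 43.4% of all genes had none. HA-Bcl-xL-only genes numbered 3 at a -log10 q of 5 or more (MAML2, MIB1, NEURL1), 2 with equal lengths (NCOR1, NEURL1), 1 with summits (NCOR1) and 1 with canonical starts (MIB1). Under these settings 0.834, 0.775, 0.894 and 0.973% of all genes had that pattern, and with so few of 53 genes these counts are not read as a property of the pathway. With a library left out this count ranged from 0 to 4 and the control-only count from 0 to 1.

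No gene passed the width test in 9 of 10 other settings. With the replicate block 2 genes passed, and with a library left out 0 to 3 did: 2 without HA-Bcl-xL 2 and 3 without HA-Bcl-xL 3, where the lone library is assumed to vary like the control. DLL3, DLL4 and JAG1 passed in none of the settings in which they were tested and kept their directions there. At 1 kb DLL3 alone of the 3 was tested, and at a -log10 q of 5 or more DLL4 and JAG1. Without centring, the median change of all genes was 0.10 in place of -0.0186. Same-numbered libraries correlated in their deviations at 0.00455 and 0.0297. The deviations of 2 HA-Bcl-xL libraries mirror each other, so this check is weak, and the libraries were not treated as pairs. Depth limits every absence: the median H3K4me3 peak held 9 to 12 fragments.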
